A study of Aspergillus niger with 9 samples.

Results

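The genes that carry an ATP-binding cassette (ABC) were followed in Aspergillus niger, a filamentous fungus, growing as vegetative mycelium. A member was any gene of the annotated table whose PFAM entries include PF00005, the ABC nucleotide-binding domain, and whose closest SwissProt protein is not described with the words elongation factor, ribosom or peroxisom. This rule gave 67 of the 11187 genes in the table, and it left out 1 further PF00005 gene, ATCC64974_44980, an elongation factor 3-like gene. RNA was sequenced from 3 strains with 3 biological replicates each. MA234.1 is the reference and is also the labelled background of both other strains, the deletion strains ΔaslA and ΔaslB, which lack aslA and aslB respectively. All 9 cultures were grown in shaken liquid medium. The protocol names a 16 h culture in rich medium with 25 mM glucose and a 4 h culture in minimal medium with 25 mM xylose, without assigning libraries to either. The study's title concerns transcription factors under the control of FlbA, which acts on G-protein signalling, and the comparison is between mycelium with and without aslA or aslB.

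ABC proteins couple ATP binding and hydrolysis to work. In membrane members a pair of nucleotide-binding domains drives a pair of membrane domains that move drugs, lipids, peptides, metal conjugates or secondary metabolites across a membrane. In fungi the best-known are the pleiotropic drug resistance (PDR) pumps, which expel azoles and other toxins from the cell, and the multidrug resistance-associated proteins (MRP), many of which load conjugates into the vacuole. The ABCE and ABCF proteins have the same ATPase domain but no membrane domain, and work on ribosomes.

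The label ABC transporters therefore covers more than transporters. By their other PFAM domains and closest SwissProt protein, 17 members were PDR-type, 3 were half-size ABCG-type, 22 were MRP-type, 10 were of the multidrug resistance (MDR) type, 2 were ABCD-type, 5 were soluble ABCE or ABCF-type proteins with 0 predicted membrane segments, and 8 had PF00005 as the sole one of the domains that define these classes, a class the plots call nucleotide-binding domain only. In all, 56 members had at least 1 predicted membrane segment, 35 had 10 or more, and 11 had 0. PDR-type members had 10 to 13 segments, MRP-type members 2 to 16 and MDR-type members 4 to 13. The 8 genes in which no further class domain was recognised had 0 to 9, with 9 in ATCC64974_7200 (abcC8) and 3 in ATCC64974_93000 (ABCC2), so the lack of a recognised domain does not make them soluble. A gene is called here by its identifier and by the symbol of its closest SwissProt protein, which comes from another species: 7 members were closest to yeast YBT1, 6 each to yeast YCF1, to fission yeast pmd1 and to fission yeast bfr1, and 5 to Candida CDR4. A shared symbol does not make a gene the orthologue.

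Each library held 11321882 to 19110786 counts, and values below are CPM, which are counts scaled to a common library total (edgeR, TMM scaling), given for replicates 1, 2 and 3 in that order. Replicates correlated at r = 0.984 to 0.991 across genes in MA234.1 and at 0.971 to 0.991 in ΔaslA, but at 0.799 to 0.943 in ΔaslB, where replicate 2 stood apart. Of the genes called between ΔaslA and MA234.1, 90.7% lay closer to MA234.1 than to ΔaslA in ΔaslB replicate 2. The corresponding share was 19.6% for replicate 1 and 6.81% for replicate 3. For this reason ΔaslB is described library by library, and its tests are given with and without replicate 2. Conidiation regulators, which mark spore formation rather than mycelium, were not all low. ATCC64974_20070 (abaA) stood at 0.826, 2.01 and 1.46 CPM in MA234.1, 18.4, 21.7 and 16.9 in ΔaslA and 9.88, 2.85 and 12.3 CPM in ΔaslB, so it was high in ΔaslA and in ΔaslB replicates 1 and 3 and low in MA234.1 and ΔaslB replicate 2. Of 2 brlA-like genes, ATCC64974_72370 went the other way, with 36.9, 41.04 and 39.2 CPM in MA234.1, 17.9, 11.7 and 18.7 in ΔaslA and 12.8, 25.6 and 16.5 CPM in ΔaslB, and ATCC64974_15030 lay between 0.622 and 1.76 CPM in all 9 libraries. ATCC64974_16190 (wetA) lay between 11.5 and 30.7 CPM. The part of these genes, or of spore formation, in the results below was not tested. The deletions were not checked, since no symbol in the annotation used here reads aslA or aslB.

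Of the 67 members, 59 had enough counts to be tested. The other 8 stayed at a strain mean of 0.962 CPM or less, and 1 of them, ATCC64974_26050 (abcC5), had no count in any library. In MA234.1, 34 members averaged under 10 CPM and 9 members averaged 100 CPM or more. Levels of different genes were compared per kilobase of gene span. The highest was ATCC64974_20120 (Abcd2), closest to the mammalian peroxisomal transporter of very-long-chain fatty acyl-CoA, at 149 ± 5.29 CPM per kb (SD, n = 3). It was followed by ATCC64974_49750 (ARB_01379), an ABCG-type gene, at 91.4 ± 3.82, by ATCC64974_17820 (ABCC2), an MRP-type gene, at 78.7 ± 1.01, and by ATCC64974_2260 (bfr1), a PDR-type gene, at 76.7 ± 2.05 CPM per kb. ARB_01379 stood above ABCC2 by more than their spread, but ABCC2 and bfr1 differed by less than the SD of bfr1. The other ABCD-type gene, ATCC64974_101890 (ABCD2), reached 63.3 ± 3.14, and 2 MDR-type genes with mitochondrial closest proteins came next, ATCC64974_98280 (atm1) at 46.3 ± 2.78 and ATCC64974_81840 (mdl1) at 35.02 ± 2.29 CPM per kb. The highest soluble gene was ATCC64974_30740 (SPBC29A3.09c) at 31.5 ± 1.36 CPM per kb, which overlapped the range of mdl1. In ΔaslA the order at the top changed: bfr1 ATCC64974_2260 led with 157 ± 20.6 CPM per kb. ATCC64974_64310 (ARB1) followed with 126 ± 20.3, then ATCC64974_104600 (RLI1) with 109.9 ± 16.01 and ARB_01379 with 89.4 ± 4.71 CPM per kb. The ranges of mean ± SD of neighbours in this order overlap.

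**Figure D1:**
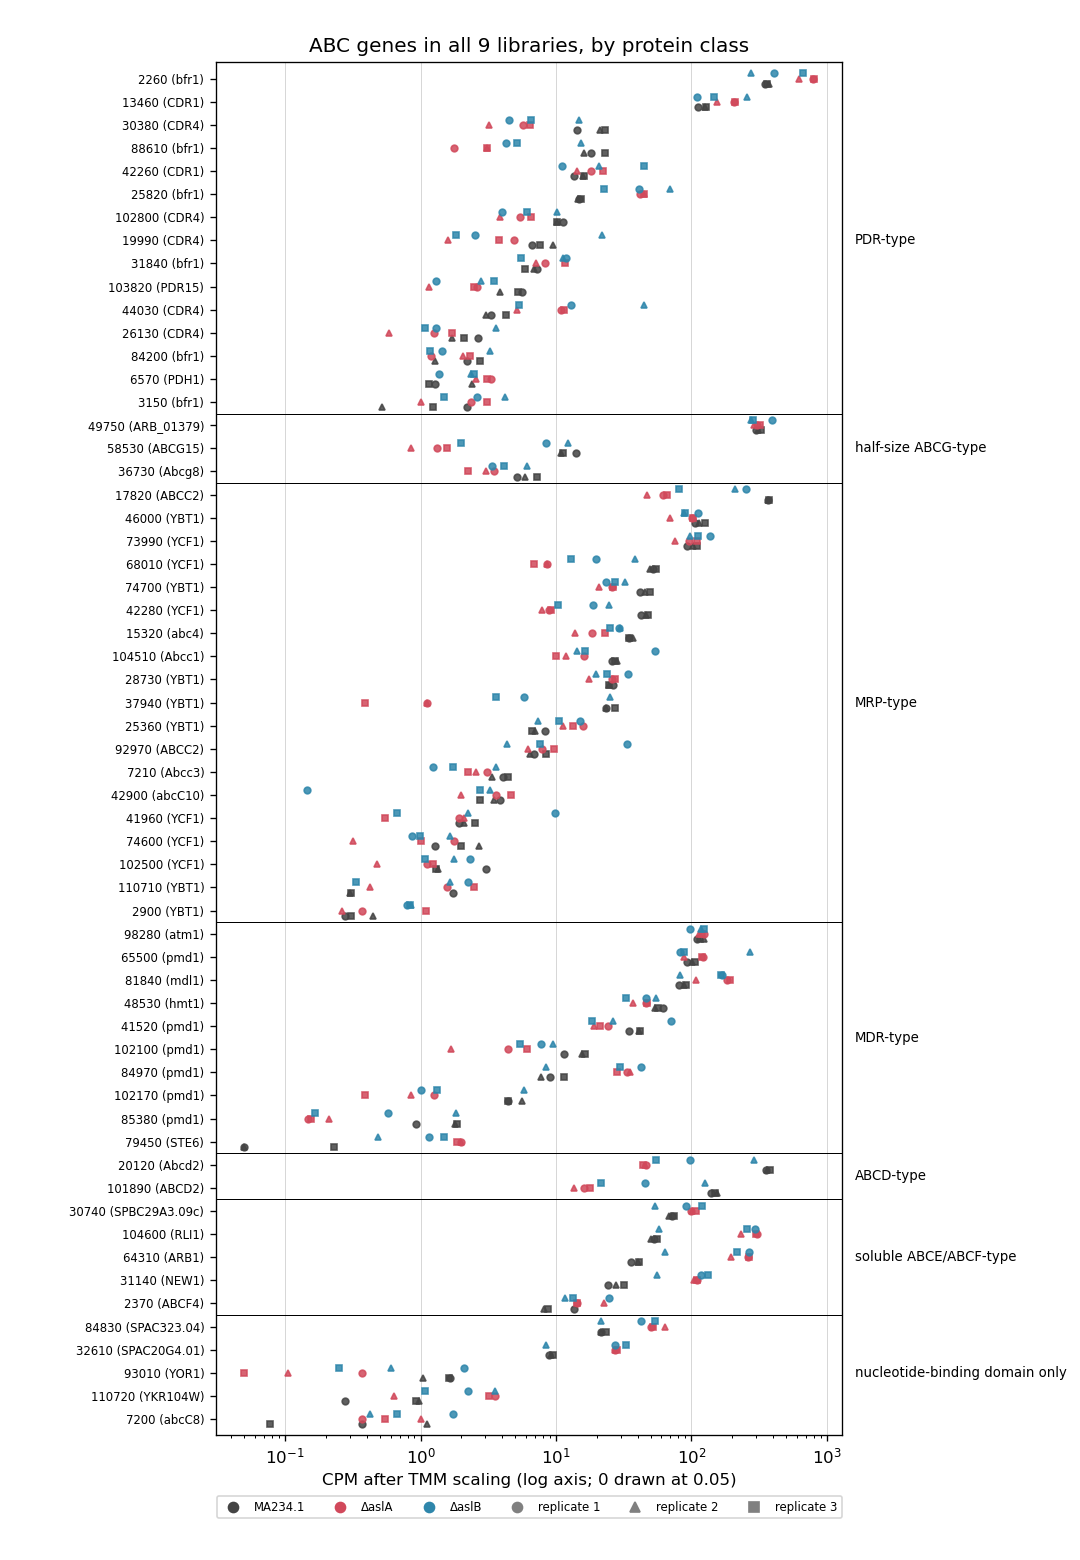
CPM after TMM scaling, on a log axis, of the 59 tested ABC genes, 1 row a gene by class (labels drop the prefix of the identifier), with colour for the strain and marker shape for the replicate; a value of 0 is drawn at 0.05. The ΔaslA points of both ABCD-type genes lie far left of MA234.1, those of ARB1 and RLI1 far right, and the ΔaslB points of 1 gene are often widely spread.

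In ΔaslA against MA234.1 ABC genes went both ways: 3 of the 5 genes of ribosome-associated soluble proteins rose and both ABCD-type genes fell. Of the 19 MRP-type genes tested, 6 fell and 1 rose, and their share of calls, 36.8%, lay below the 48.7% of all genes. In RNA from whole mycelium, less transcript per cell and fewer cells that hold it cannot be told apart. Of the 59 tested members, 27 were called at an adjusted p under 0.05 (edgeR quasi-likelihood test, Benjamini-Hochberg over all genes tested), 11 higher and 16 lower in ΔaslA. Among all 9568 genes tested, 4657 were called, or 48.7% (23.6% higher and 25.0% lower), so the members' count lies near the background. At an unadjusted p under 0.05 there were 30 members, against 56.9% of all genes. The median log2 fold change of the members was -0.12, and that of all genes was 0.00. All 27 called members had 3 ΔaslA libraries outside the range of the 3 MA234.1 libraries. The choice by a small p in this same comparison favours that, so it adds no support to the calls. In all, 42 of 59 members did not overlap, against 74.7% of all genes. The call held for 18 of the 27 under every alternative that gave an adjusted p. The other 9 lost it in some alternative that used all 3 strains, and each is marked where it is described. A call described below as lost without a library was lost from a fit that kept ΔaslB. In fits of only these 2 strains, also with 1 library left out, 0 of the 27 calls were lost. Of the 32 tested members without a call, 17 were called in 1 to 11 of their alternatives. In a fit of only the 6 libraries of these 2 strains, 37 members were called, against 69.3% of all genes.

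**Figure D2:**
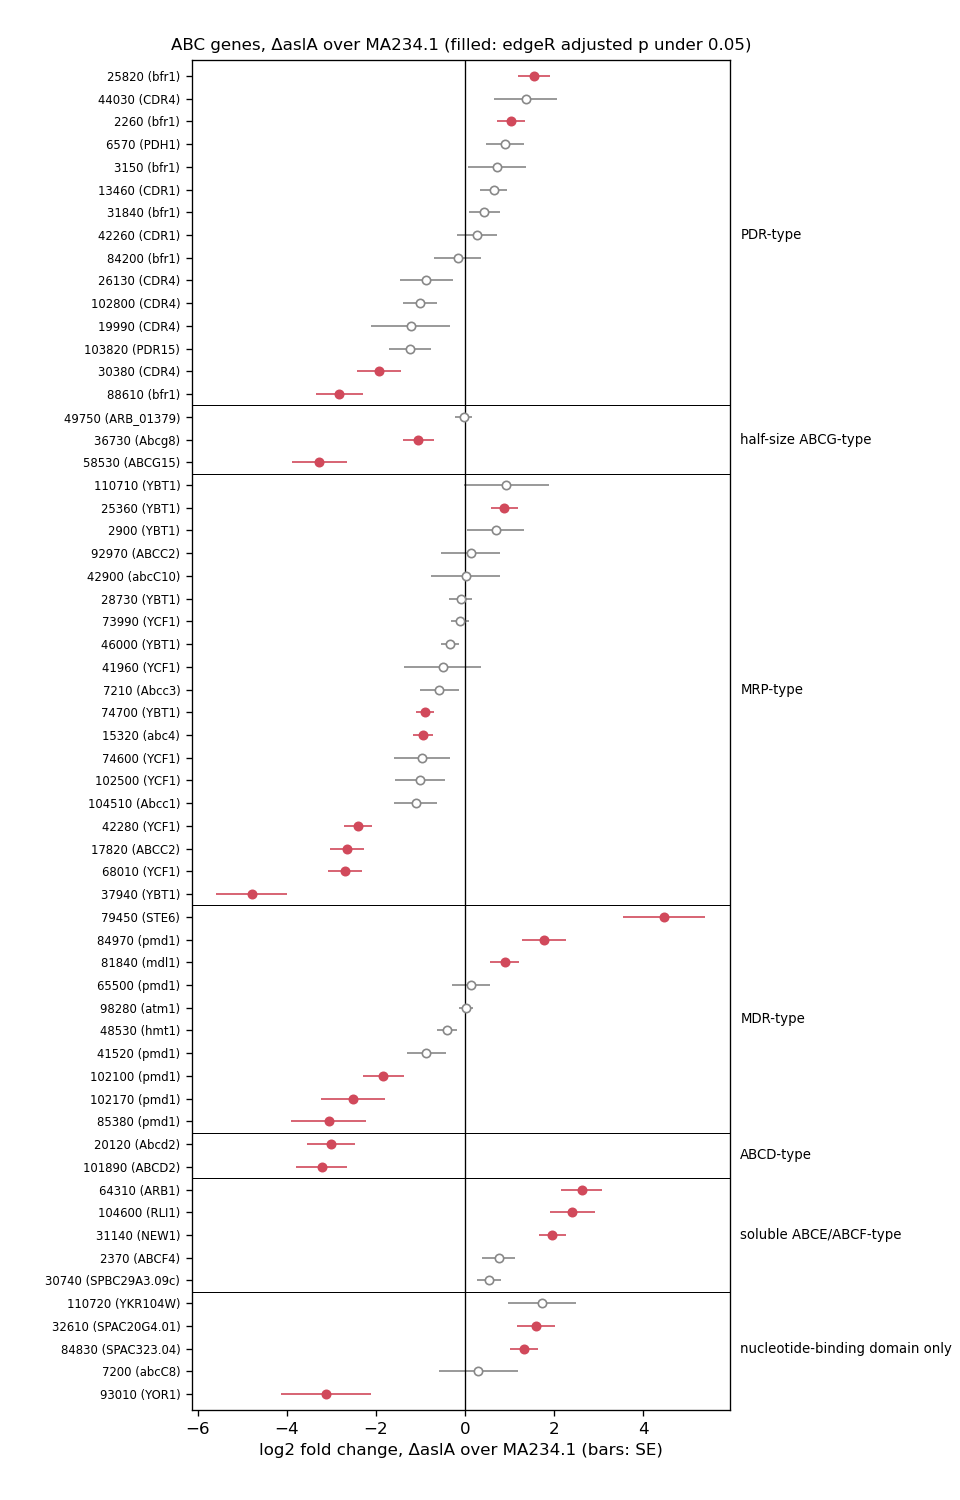
Log2 fold change of each of the 59 tested ABC genes in ΔaslA over MA234.1, by class (labels drop the prefix of the identifier), with bars of SE on each side; filled points passed the edgeR test and open points did not. The 5 soluble genes all lie right of 0, both ABCD-type genes lie near -3, and genes of 1 symbol such as pmd1 lie on both sides.

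The soluble ABCE and ABCF-type genes had 3 of 5 that rose and none that fell, and the median log2 fold change was 1.96. Among all genes 23.6% were called higher and 25.0% lower. ATCC64974_64310 (ARB1), closest to a yeast ABCF protein of ribosome biogenesis, stood at 35.9, 40.6 and 41.2 CPM for MA234.1, 261, 196 and 266 CPM for ΔaslA and 268, 63.4 and 217 CPM for ΔaslB. Every ΔaslA library exceeded every MA234.1 library several-fold, and in ΔaslB replicates 1 and 3 reached the ΔaslA range whereas replicate 2 did not (log2 change 2.62 with SE 0.46, edgeR adjusted p = 0.00808 for ΔaslA). ATCC64974_104600 (RLI1), the ABCE protein that recycles ribosomes in yeast, stood at 52.8, 50.4 and 55.3 CPM for MA234.1, 307, 233.8 and 302 CPM for ΔaslA and 296, 57.9 and 259 CPM for ΔaslB. It had the same arrangement, with ΔaslB replicate 2 next to the MA234.1 libraries (log2 change 2.41 with SE 0.51, edgeR adjusted p = 0.00863). ATCC64974_31140 (NEW1), closest to a yeast ABCF protein related to elongation factor 3, stood at 24.2, 27.6 and 31.6 CPM for MA234.1, 109, 105 and 111 CPM for ΔaslA and 118, 55.97 and 133 CPM for ΔaslB. Here all 3 ΔaslB libraries also lay above MA234.1, replicate 2 the least (log2 change 1.96 with SE 0.31, edgeR adjusted p = 0.00808). The remaining soluble genes did not pass the test: ATCC64974_30740 (SPBC29A3.09c) had a log2 fold change of 0.54 (edgeR adjusted p = 0.121) and ATCC64974_2370 (ABCF4) one of 0.75 (edgeR adjusted p = 0.119). They were called in 8 and 5 of 23 alternatives respectively, all of them without ΔaslB replicate 2 or without ΔaslB altogether. The elongation factor 3-like gene ATCC64974_44980 (TEF3), which the rule leaves out, also rose, with 94.9 ± 5.01 CPM in MA234.1 and 1537 ± 146 CPM in ΔaslA (SD, n = 3; log2 change 4.02 with SE 0.77, edgeR adjusted p = 0.00808). The summed level of the 5 soluble genes was 201 ± 8.46 CPM in MA234.1 and 751 ± 79.9 CPM in ΔaslA (SD, n = 3).

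Both ABCD-type genes fell, against 25.0% of all genes called lower. ATCC64974_20120 (Abcd2) stood at 355, 361 and 379.8 CPM for MA234.1, 46.3, 45.7 and 43.8 CPM for ΔaslA and 96.8, 291 and 54.8 CPM for ΔaslB. The ΔaslA libraries lay far below all MA234.1 libraries, and in ΔaslB replicate 2 was closest to MA234.1 but still below it (log2 change -3.01 with SE 0.54, edgeR adjusted p = 0.00808 for ΔaslA). ATCC64974_101890 (ABCD2) stood at 139, 153 and 149 CPM for MA234.1, 15.98, 13.5 and 17.7 CPM for ΔaslA and 45.7, 127 and 21.6 CPM for ΔaslB. The order of the libraries was the same (log2 change -3.22 with SE 0.56, edgeR adjusted p = 0.00808). The ABCD-type sum dropped from 512 ± 17.3 to 61.02 ± 1.597 CPM (SD, n = 3). Although their closest protein is a peroxisomal transporter, its description does not hold the word, so both genes meet the rule.

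Among the 22 MRP-type genes 19 were tested, of which 6 fell, 1 rose and 12 did not pass the test, with a median log2 fold change of -0.57. The calls were 36.8% of those tested, against 48.7% of all genes (25.0% lower). The largest fall was that of ATCC64974_37940, 1 of 7 genes closest to YBT1, a vacuolar bile acid transporter of yeast, which stood at 23.3, 23.2 and 27.3 CPM for MA234.1, 1.11, 1.11 and 0.389 CPM for ΔaslA and 5.84, 24.9 and 3.57 CPM for ΔaslB. MA234.1 and ΔaslB replicate 2 were high, ΔaslB replicates 1 and 3 were intermediate and ΔaslA was lowest (log2 change -4.79 with SE 0.79, edgeR adjusted p = 0.00808). The most abundant gene of the class, ATCC64974_17820 (ABCC2), closest to a mammalian organic anion exporter, stood at 366, 365 and 374 CPM for MA234.1, 62.1, 47.3 and 66.5 CPM for ΔaslA and 253, 210.2 and 80.4 CPM for ΔaslB. No ΔaslA or ΔaslB library reached the MA234.1 range (log2 change -2.65 with SE 0.39, edgeR adjusted p = 0.00808 for ΔaslA).

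Of the 6 genes closest to YCF1, which moves glutathione conjugates and metals into the yeast vacuole, 2 fell and 4 did not pass the test. Among all genes 48.7% were called, 25.0% of them as lower, so so few genes show nothing particular to this symbol. ATCC64974_68010 stood at 52.02, 49.7 and 54.4 CPM for MA234.1, 8.58, 8.54 and 6.84 CPM for ΔaslA and 19.9, 38.6 and 12.97 CPM for ΔaslB (log2 change -2.70 with SE 0.38, edgeR adjusted p = 0.00808). ATCC64974_42280 stood at 42.6, 45.96 and 48.1 CPM for MA234.1, 8.802, 7.85 and 9.25 CPM for ΔaslA and 18.8, 24.5 and 10.4 CPM for ΔaslB (log2 change -2.40 with SE 0.31, edgeR adjusted p = 0.00723). In both, the 3 ΔaslA libraries were close together and below all others. The most abundant YCF1-like gene, ATCC64974_73990, stood at 92.2, 103 and 109.7 CPM in MA234.1 and 95.8, 75.6 and 111 CPM in ΔaslA, which overlap (log2 change -0.12 with SE 0.21, edgeR adjusted p = 0.6601). ATCC64974_41960, ATCC64974_74600 and ATCC64974_102500 averaged under 10 CPM in MA234.1 and had log2 fold changes of -0.51, -0.96 and -1.01.

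The other YBT1-like genes went several ways. ATCC64974_74700 stood at 41.4, 45.7 and 49.7 CPM in MA234.1 and 26.1, 20.9 and 26.4 CPM in ΔaslA, a smaller fall without overlap (log2 change -0.90 with SE 0.21, edgeR adjusted p = 0.00979). ATCC64974_25360 rose, from 8.26, 6.94 and 6.68 CPM to 15.8, 11.2 and 13.4 CPM (log2 change 0.89 with SE 0.31, edgeR adjusted p = 0.0421). That call was lost with limma-voom and with any 1 of the 6 MA234.1 and ΔaslA libraries left out of the fit with ΔaslB (adjusted p 2.48e-05 to 0.132 over 23 alternatives). It was kept in the fits without ΔaslB. ATCC64974_46000, ATCC64974_28730, ATCC64974_2900 and ATCC64974_110710 did not pass the test, with log2 fold changes from -0.34 to 0.93. ATCC64974_15320 (abc4), a further MRP-type gene, fell from 34.4, 37.2 and 34.6 CPM to 18.3, 13.9 and 23.01 CPM (log2 change -0.94 with SE 0.22, edgeR adjusted p = 0.0108). The other 4 tested MRP-type genes were ATCC64974_104510 (Abcc1), ATCC64974_7210 (Abcc3), ATCC64974_42900 (abcC10) and ATCC64974_92970 (ABCC2), with log2 fold changes from -1.11 to 0.13 and no call in the fit of all libraries. Abcc1 stood at 25.7, 28.4 and 27.2 CPM in MA234.1 and 15.98, 11.9 and 9.95 CPM in ΔaslA, without overlap (edgeR adjusted p = 0.0859). It was called in 9 of 23 alternatives, among them every fit without ΔaslB. The class sum was 872 ± 30.9 CPM in MA234.1 and 374 ± 64.7 CPM in ΔaslA (SD, n = 3).

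Of the 15 PDR-type genes tested, 2 rose, 2 fell and 11 did not pass the test, and the median log2 fold change was 0.27. The share called was 26.7%, against 48.7% of all genes. The genes closest to bfr1, which gives fission yeast resistance to brefeldin A, went both ways: 2 rose, 1 fell and 3 did not pass (all genes: 23.6% higher, 25.0% lower). ATCC64974_2260, the most abundant PDR-type gene, stood at 352, 372 and 360.0 CPM for MA234.1, 788, 628 and 803 CPM for ΔaslA and 409.8, 274 and 665 CPM for ΔaslB. The ΔaslA libraries lay above all MA234.1 libraries, and ΔaslB replicate 2 lay below them (log2 change 1.03 with SE 0.31, edgeR adjusted p = 0.0246 for ΔaslA). This call was lost without any 1 MA234.1 library and without ΔaslA replicate 1 or 3 (adjusted p 1.40e-17 to 0.0765 over 23 alternatives). ATCC64974_25820 stood at 14.9, 14.5 and 15.3 CPM for MA234.1, 41.7, 44.8 and 44.3 CPM for ΔaslA and 40.7, 69.5 and 22.4 CPM for ΔaslB. It is a gene whose highest library was ΔaslB replicate 2 (log2 change 1.55 with SE 0.36, edgeR adjusted p = 0.0101). ATCC64974_88610 fell, with 17.98, 15.97 and 22.96 CPM for MA234.1, 1.78, 3.11 and 3.11 CPM for ΔaslA and 4.25, 15.3 and 5.15 CPM for ΔaslB (log2 change -2.83 with SE 0.53, edgeR adjusted p = 0.00808). The ΔaslA libraries and ΔaslB replicates 1 and 3 were low, and ΔaslB replicate 2 was just under the MA234.1 range. ATCC64974_84200, ATCC64974_31840 and ATCC64974_3150 had log2 fold changes of -0.16, 0.43 and 0.71.

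CDR1 and CDR2 are azole efflux pumps of Candida albicans, and CDR4 is a member of the same family there. Of 5 CDR4-like genes only ATCC64974_30380 passed the test, against 48.7% of all genes. It had 14.2, 21.2 and 22.96 CPM in MA234.1 and 5.695, 3.21 and 6.45 CPM in ΔaslA (log2 change -1.93 with SE 0.49, edgeR adjusted p = 0.0129). ATCC64974_19990, ATCC64974_102800, ATCC64974_26130 and ATCC64974_44030 ranged from -1.22 to 1.36 in log2 fold change without a call in the fit of all libraries. ATCC64974_102800 lay just past the threshold (edgeR adjusted p = 0.0546) and was called in 11 of 23 alternatives, DESeq2 and limma-voom among them, ATCC64974_44030 in 8 of 23 and ATCC64974_19990 in 6 of 22. The main CDR1-like gene, ATCC64974_13460, stood at 112, 127 and 127 CPM for MA234.1, 205, 155 and 211 CPM for ΔaslA and 111, 257 and 146 CPM for ΔaslB. Its ΔaslA libraries lay above all MA234.1 libraries, but the difference did not pass the test (log2 change 0.64 with SE 0.30, edgeR adjusted p = 0.107). It was called in 8 of 23 alternatives, all of them without ΔaslB replicate 2 or without ΔaslB altogether. ATCC64974_42260, the other tested CDR1-like gene, had 13.5, 15.7 and 16.1 CPM in MA234.1 and 18.1, 14.4 and 22.4 CPM in ΔaslA, which overlap (log2 change 0.27 with SE 0.45, edgeR adjusted p = 0.6298). ATCC64974_6570 (PDH1), closest to an azole pump of Candida glabrata, and ATCC64974_103820 (PDR15) had log2 fold changes of 0.89 and -1.24 (edgeR adjusted p = 0.107 and 0.0553). PDR15 was called in 10 of 22 alternatives, among them DESeq2, limma-voom and each fit without 1 ΔaslB library. The PDR-type sum was 593 ± 21.6 CPM in MA234.1 and 1037 ± 142 CPM in ΔaslA (SD, n = 3), of which ATCC64974_2260 alone contributed 361 ± 9.65 and 739.7 ± 97.02 CPM.

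The MDR-type genes also split: of 10 tested, 3 rose, 3 fell and 4 did not pass (60.0% called, against 48.7% of all genes). The largest rise of any member was ATCC64974_79450 (STE6), closest to the exporter of the a-factor mating pheromone of yeast, at 0, 0 and 0.2303 CPM for MA234.1, 1.997, 2.002 and 1.87 CPM for ΔaslA and 1.15, 0.485 and 1.496 CPM for ΔaslB. It had 3 counts over the 3 MA234.1 libraries and 89 over the 3 ΔaslA libraries, a depth-corrected ratio of 24.4 (95% exact interval 8.09 to 121, counting error only; edgeR adjusted p = 0.00842). All 3 of the MA234.1 counts were in replicate 3. The gene was called in all 22 alternatives, with a log2 change from 3.89 to 7.78. The highest was without MA234.1 replicate 3, which leaves MA234.1 at 0, so that value depends on the fit's prior count and is no bound. The gene stayed at about 2 CPM even where it was highest. Of 6 genes closest to pmd1, an exporter that gives fission yeast resistance to leptomycin B, 1 rose, 3 fell and 2 did not pass (all genes: 23.6% higher, 25.0% lower). ATCC64974_84970 rose, with 9.08, 7.76 and 11.5 CPM for MA234.1, 33.2, 35.1 and 28.4 CPM for ΔaslA and 42.2, 8.37 and 29.8 CPM for ΔaslB (log2 change 1.77 with SE 0.50, edgeR adjusted p = 0.0189), and ΔaslB replicate 2 lay within the MA234.1 range. This call was lost without MA234.1 replicate 1 or 2 and without ΔaslA replicate 2 (adjusted p 4.44e-10 to 0.0679 over 23 alternatives).

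The 3 pmd1-like genes that fell were low in every strain. ATCC64974_102100 had 11.5, 15.5 and 16.4 CPM in MA234.1 and 4.44, 1.69 and 6.06 CPM in ΔaslA (log2 change -1.84 with SE 0.46, edgeR adjusted p = 0.0125). ATCC64974_102170 had 4.403, 5.596 and 4.45 CPM and 1.26, 0.843 and 0.389 CPM (log2 change -2.52 with SE 0.72, edgeR adjusted p = 0.0201), and the call was lost without MA234.1 replicate 2 and without ΔaslA replicate 2 or 3 (adjusted p 2.61e-05 to 0.0679 over 22 alternatives). ATCC64974_85380 had 0.917, 1.79 and 1.84 CPM and 0.148, 0.211 and 0.155 CPM (log2 change -3.07 with SE 0.83, edgeR adjusted p = 0.0166), and lost the call without MA234.1 replicate 3 and without ΔaslA replicate 1 or 3 (adjusted p 8.13e-04 to 0.0565 over 22 alternatives). None of the 3 overlapped between these strains. The abundant pmd1-like gene ATCC64974_65500 had 92.2, 100.4 and 107 CPM in MA234.1 and 121, 88.4 and 120.3 CPM in ΔaslA, which overlap, and ATCC64974_41520 had 34.9, 40.8 and 41.5 CPM and 24.2, 19.02 and 20.99 CPM, which do not overlap but did not pass (edgeR adjusted p = 0.128). ATCC64974_41520 was called in 8 of 23 alternatives, all of them without ΔaslB replicate 1 or without ΔaslB altogether.

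Of the 3 organelle-type genes of the class, ATCC64974_98280 (atm1), whose yeast counterpart is the mitochondrial exporter needed for iron-sulphur proteins outside mitochondria, was nearly level at 111, 124 and 115 CPM for MA234.1, 123, 113 and 119 CPM for ΔaslA and 96.9, 118 and 125 CPM for ΔaslB (log2 change 0.02 with SE 0.17, edgeR adjusted p = 0.918). All 3 groups of libraries overlapped. ATCC64974_81840 (mdl1), closest to another mitochondrial transporter of yeast, had 80.6, 87.7 and 91.8 CPM in MA234.1 and 182, 108 and 191 CPM in ΔaslA (log2 change 0.89 with SE 0.32, edgeR adjusted p = 0.0448). Its rise lost the call with limma-voom, without any 1 MA234.1 library and without ΔaslA replicate 1 or 3 (adjusted p 9.05e-14 to 0.124 over 23 alternatives). ATCC64974_48530 (hmt1), closest to a vacuolar heavy metal tolerance protein of fission yeast, had 61.8, 53.7 and 56.4 CPM and 46.4, 37.1 and 47.1 CPM and did not pass (edgeR adjusted p = 0.165). It was called in 5 of 23 alternatives, all of them without ΔaslB.

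In the small ABCG-type class, ATCC64974_58530 (ABCG15) stood at 14.04, 10.9 and 11.2 CPM for MA234.1, 1.33, 0.843 and 1.55 CPM for ΔaslA and 8.43, 12.3 and 1.99 CPM for ΔaslB. ΔaslA was low in all 3 libraries, and ΔaslB replicate 3 was low while replicate 2 lay in the MA234.1 range (log2 change -3.28 with SE 0.62, edgeR adjusted p = 0.00808 for ΔaslA). ATCC64974_36730 (Abcg8), closest to a mammalian sterol exporter subunit, fell from 5.14, 5.89 and 7.22 CPM to 3.48, 3.06 and 2.25 CPM (log2 change -1.05 with SE 0.34, edgeR adjusted p = 0.0327), a call lost with the replicate number as a block and without any 1 of the 6 libraries (adjusted p 0.003199 to 0.125 over 23 alternatives). ATCC64974_49750 (ARB_01379), the abundant member, stood at 298, 311 and 324 CPM for MA234.1, 306, 288 and 319.7 CPM for ΔaslA and 396, 277 and 283 CPM for ΔaslB and overlapped in all strains (log2 change -0.03 with SE 0.20, edgeR adjusted p = 0.904 for ΔaslA).

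Of the 5 tested genes with PF00005 and no further class domain, 2 rose and 1 fell (60.0% called, against 48.7% of all genes). ATCC64974_32610 (SPAC20G4.01) had 8.81, 9.25 and 9.44 CPM in MA234.1 and 27.4, 27.03 and 28.1 CPM in ΔaslA (log2 change 1.59 with SE 0.43, edgeR adjusted p = 0.0162), a call lost without any 1 MA234.1 library (adjusted p 2.48e-10 to 0.0541 over 23 alternatives). ATCC64974_84830 (SPAC323.04) had 21.6, 21.5 and 23.3 CPM and 50.1, 64.1 and 52.4 CPM (log2 change 1.33 with SE 0.32, edgeR adjusted p = 0.0109). Both were higher in every ΔaslA library. ATCC64974_93010 (YOR1), closest in name to an oligomycin exporter of yeast but with 0 predicted membrane segments, fell from 1.65, 1.04 and 1.61 CPM to 0.3698, 0.105 and 0 CPM (log2 change -3.12 with SE 1.01, edgeR adjusted p = 0.0311). That call was lost without any 1 MA234.1 library and without ΔaslA replicate 2 or 3 (adjusted p 0.00366 to 0.09900 over 22 alternatives). ATCC64974_7200 (abcC8) and ATCC64974_110720 (YKR104W) did not pass. Of the members not tested, ATCC64974_6010 (ABCC1) had 37 counts over the MA234.1 libraries and 3 over the ΔaslA libraries.

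**Figure D3:**
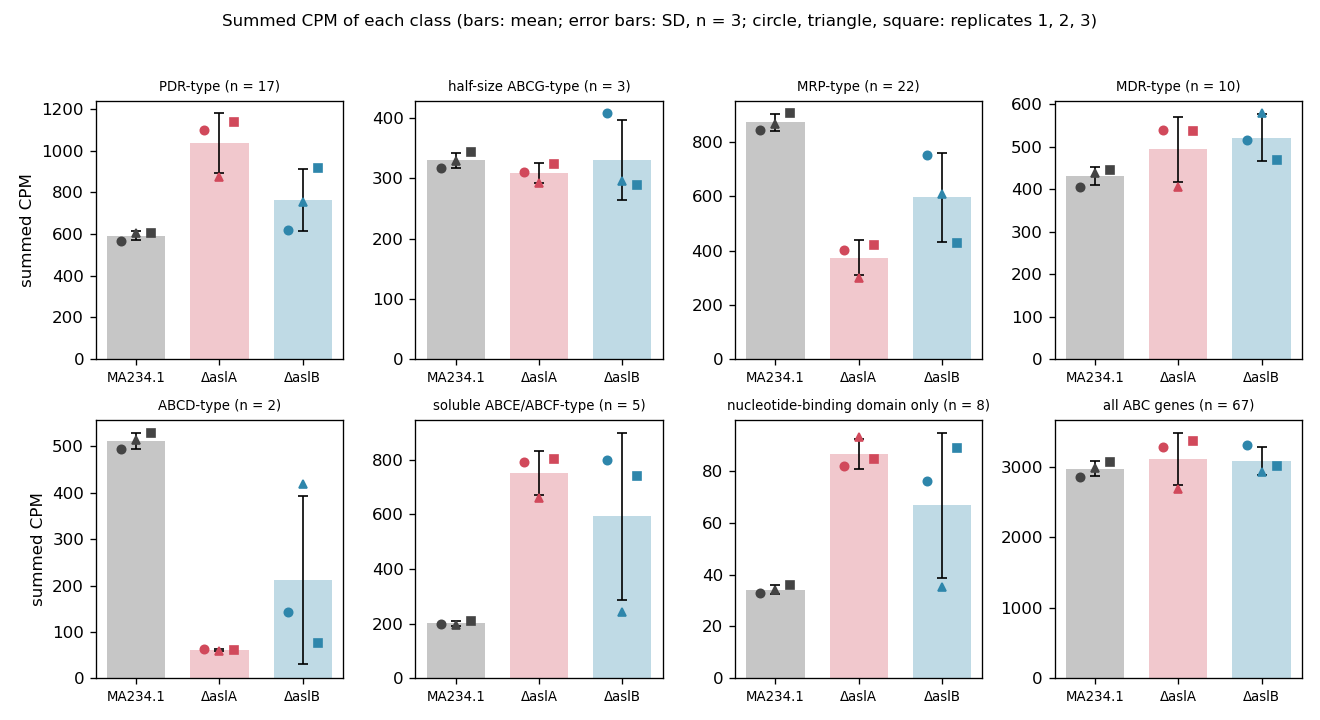
Summed CPM of each ABC class and of all 67 ABC genes, with bars for the mean of the 3 libraries of a strain, error bars for the SD and points for the libraries. The ABCD-type bar is 512 CPM in MA234.1 and 61.02 CPM in ΔaslA, and in the ABCD-type and soluble classes ΔaslB replicate 2 stands apart from replicates 1 and 3 and nearest to MA234.1. The soluble sum was 797, 243 and 740.2 CPM in the 3 ΔaslB libraries.

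The sum over all 67 members differed between strains by less than its spread: it was 2972 ± 108 CPM for MA234.1, 3111 ± 373 for ΔaslA and 3086 ± 201 CPM for ΔaslB (SD, n = 3), which overlap.

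Several members lie beside enzymes of secondary metabolism. In filamentous fungi a metabolite's exporter is often encoded near its backbone synthase, the polyketide or nonribosomal peptide synthase that builds the scaffold. A secondary metabolite cluster number was carried by 9 members, or 13.4%, against 4.997% of all genes, and 8 members, or 11.9%, had a backbone synthase within 5 genes on either side, against 6.07% of all genes. The members sat on 13 contigs, 12 of them on contig 17, none overlapped another gene, and 8 were directly next to another member.

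The neighbouring synthase moved with the member in some places and not in others. Beside ATCC64974_17820 (ABCC2), the lovF-like gene ATCC64974_17810 stood at 9.23 ± 0.402 CPM in MA234.1 and 1.45 ± 0.272 CPM in ΔaslA (SD, n = 3; log2 change -2.67 with SE 0.52, edgeR adjusted p = 0.008099), a fall like that of its neighbour. A second lovF-like gene nearby, ATCC64974_17790, was low and was not called, with 5.09 ± 0.365 CPM in MA234.1 and 3.82 ± 0.622 CPM in ΔaslA (SD, n = 3; log2 change -0.42 with SE 0.35, edgeR adjusted p = 0.338). Beside ATCC64974_84830 (SPAC323.04), which rose, NRPS4-like ATCC64974_84880 stood at 7.19 ± 0.766 CPM in MA234.1 and 34.1 ± 2.73 CPM in ΔaslA (SD, n = 3; log2 change 2.24 with SE 0.82, edgeR adjusted p = 0.0486). ATCC64974_84830 has 0 predicted membrane segments, so it is not evidently an exporter by itself. The synthase lay just under the threshold, and calls of synthase genes under the alternatives are not given here. Beside ATCC64974_68010 (YCF1), which fell, NRPS12-like ATCC64974_68020 was not called, with 39.2 ± 3.65 CPM in MA234.1 and 32.96 ± 6.04 CPM in ΔaslA (SD, n = 3; log2 change -0.25 with SE 0.41, edgeR adjusted p = 0.623). Conversely, NRPS8-like ATCC64974_42010 fell beside ATCC64974_41960 (YCF1), which was not called, with 8.82 ± 1.07 CPM in MA234.1 and 0.742 ± 0.372 CPM in ΔaslA (SD, n = 3; log2 change -3.53 with SE 0.71, edgeR adjusted p = 0.008198). Beside ATCC64974_25820 (bfr1), which rose, the enniatin synthase-like gene ATCC64974_25800 stayed near 1 CPM, with 1.000 ± 0.628 CPM in MA234.1 and 0.786 ± 0.362 CPM in ΔaslA (SD, n = 3; log2 change -0.37 with SE 0.76, edgeR adjusted p = 0.7002). ATCC64974_104510 (Abcc1) and NRPS1-like ATCC64974_104520 were both highest in ΔaslB replicate 1, at 53.8, 14.4 and 16.4 CPM for the ABC gene and 329, 53.1 and 85.6 CPM for the synthase in the 3 ΔaslB libraries. Neither of this pair was called between ΔaslA and MA234.1, the synthase standing at 104 ± 20.9 CPM in MA234.1 and 70.6 ± 6.07 CPM in ΔaslA (SD, n = 3; log2 change -0.56 with SE 0.57, edgeR adjusted p = 0.437). The NRPS12-like gene ATCC64974_7190, beside the adjacent members ATCC64974_7200 (abcC8) and ATCC64974_7210 (Abcc3), was level with 7.58 ± 1.78 CPM in MA234.1 and 7.41 ± 1.52 CPM in ΔaslA (SD, n = 3; log2 change -0.03 with SE 0.34, edgeR adjusted p = 0.945), and the NRPS4-like gene ATCC64974_17840 near ATCC64974_17820 had too few counts to test.

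**Figure D4:**
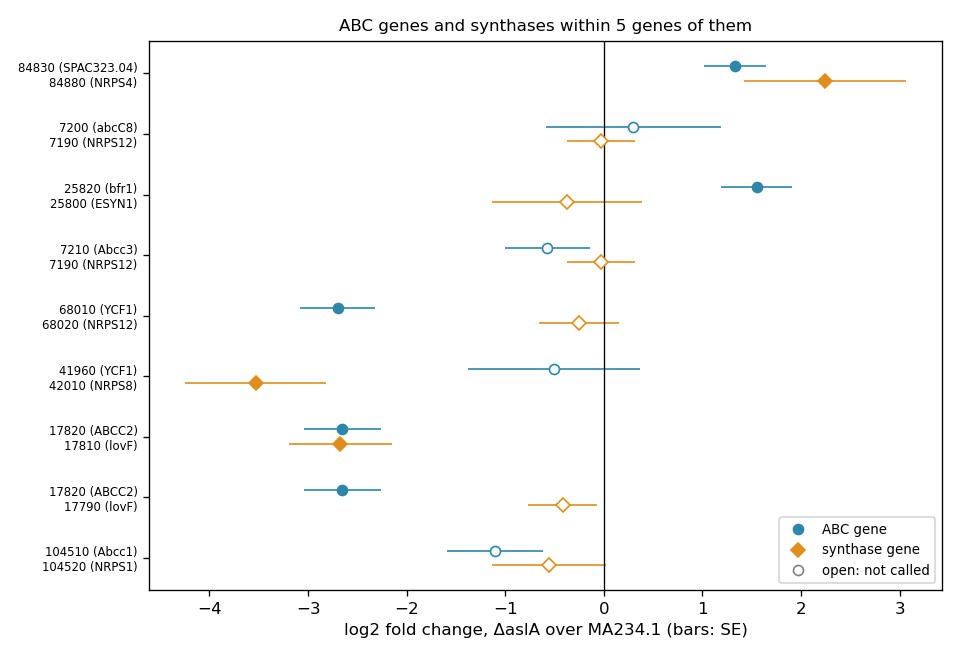
Log2 fold change in ΔaslA over MA234.1 of ABC genes (circles) and of the tested backbone synthase genes within 5 genes of them (diamonds), with bars of SE; filled symbols passed the edgeR test. The pair of ATCC64974_17820 at -2.65 and its lovF-like neighbour ATCC64974_17810 at -2.67 lies together, whereas ATCC64974_68010 at -2.70 and its NRPS12-like neighbour at -0.25 lie apart.

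In ΔaslB against MA234.1 the same 3 soluble genes stood higher and both ABCD-type genes lower in all 3 ΔaslB libraries, but no member was called. Of 59 members 0 passed (edgeR), as did 0.0% of all genes; 16 had an unadjusted p under 0.05, against 30.8% of all genes, and the smallest adjusted p of a member was 0.0665. limma-voom also called 0, with 17 members at an unadjusted p under 0.05, against 3305 of the 9568 genes tested. DESeq2 instead called 11 members, 8 higher and 3 lower, against 18.2% of all genes (13.6% higher, 4.6% lower). With total counts alone as scaling 5 members were called, all higher, against 8.18% of all genes (7.98% higher). The 3 ΔaslB libraries lay outside the MA234.1 range for 18 members, 8 above and 10 below, against 36.8% of all genes. Among those above were ARB1 ATCC64974_64310 (log2 change 2.22 with SE 0.46, edgeR adjusted p = 0.0665), RLI1 ATCC64974_104600 (log2 change 1.95 with SE 0.50, edgeR adjusted p = 0.0667), NEW1 ATCC64974_31140 (log2 change 1.88 with SE 0.31, edgeR adjusted p = 0.0665), the bfr1-like ATCC64974_25820 (log2 change 1.57 with SE 0.36, edgeR adjusted p = 0.0665) and the CDR4-like ATCC64974_44030 (log2 change 2.56 with SE 0.72, edgeR adjusted p = 0.0709). Among those below were ABCD2 ATCC64974_101890 (log2 change -1.18 with SE 0.52, edgeR adjusted p = 0.164), Abcd2 ATCC64974_20120 (log2 change -1.31 with SE 0.51, edgeR adjusted p = 0.132) and the YCF1-like ATCC64974_42280 (log2 change -1.34 with SE 0.30, edgeR adjusted p = 0.0665).

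Without ΔaslB replicate 2 these changes were called, and those of ARB1, RLI1, NEW1 and the genes below were larger. Replicate 2 was singled out by these same data as the ΔaslB library nearest MA234.1. Leaving it out therefore favours larger changes from MA234.1 and a smaller spread, and these p-values are no independent support. Only ΔaslB replicates 1 and 3 remain in any fit without it. The log2 change of ARB1 was 2.63 with SE 0.18, edgeR adjusted p = 3.80e-06, that of RLI1 2.39 with SE 0.16, edgeR adjusted p = 3.40e-06 and that of NEW1 2.17 with SE 0.15, edgeR adjusted p = 4.39e-06. The bfr1-like ATCC64974_25820 had 1.09 with SE 0.24, edgeR adjusted p = 0.00428, and the CDR4-like ATCC64974_44030 had 1.36 with SE 0.46, edgeR adjusted p = 0.0343, both smaller than with all 3 libraries. ABCD2 ATCC64974_101890 had -2.12 with SE 0.30, edgeR adjusted p = 3.25e-04, Abcd2 ATCC64974_20120 had -2.26 with SE 0.23, edgeR adjusted p = 4.60e-05 and the YCF1-like ATCC64974_42280 had -1.63 with SE 0.26, edgeR adjusted p = 7.73e-04.

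In the fit without ΔaslB replicate 2, 30 of 60 members were called, 14 higher and 16 lower, against 52.8% of all genes (26.5% higher, 26.3% lower). The CDR4-like ATCC64974_19990 changed sign: its log2 change was 0.14 with all 3 libraries (edgeR adjusted p = 0.915) and -1.86 with SE 0.49, edgeR adjusted p = 0.0111 without replicate 2. Without replicate 3, 1 member was called, the bfr1-like ATCC64974_25820, against 24 of all genes. Taking the 27 members called between ΔaslA and MA234.1, 23 lay closer to MA234.1 than to ΔaslA in ΔaslB replicate 2, 8 in replicate 1 and 1 in replicate 3; for all called genes these shares were 90.7%, 19.6% and 6.81%. The 4 members that did not lie closer to MA234.1 in replicate 2 were ATCC64974_25820 (bfr1), ATCC64974_31140 (NEW1), ATCC64974_74700 (YBT1) and ATCC64974_79450 (STE6). The median SD of log2 CPM over replicates of members was 0.160 for MA234.1, 0.317 for ΔaslA and 0.736 for ΔaslB, against 0.125, 0.254 and 0.619 for all genes.

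Single ΔaslB libraries also held members at levels seen in neither other strain. In replicate 1, ATCC64974_41960 (YCF1) reached 9.88 CPM, 3.90 times the highest of the 6 MA234.1 and ΔaslA libraries, and ATCC64974_92970 (ABCC2) reached 33.5 CPM, 3.48 times. In replicate 2 the CDR4-like ATCC64974_44030 reached 44.8 CPM (3.89 times), the CDR4-like ATCC64974_19990 21.8 CPM (2.30 times) and the pmd1-like ATCC64974_65500 271 CPM (2.25 times). In replicate 3 the CDR1-like ATCC64974_42260 reached 44.97 CPM (2.01 times). These are all members at least 2-fold above the 6 libraries with 5 CPM or more, and of the members with 5 CPM or more in all 6 libraries none was as far below. Under that minimum, ATCC64974_42900 (abcC10) stood at 0.144 CPM in ΔaslB replicate 1, where the lowest of the 6 libraries held 2.002 CPM. Of all genes, 1.51% met the same rule in replicate 1, 0.376% in replicate 2 and 0.0105% in replicate 3, and 1.39%, 0.0314% and 0.146% were as far below. The widest ranges over the ΔaslB libraries were those of ATCC64974_42900 (abcC10), with 0.144, 3.27 and 2.74 CPM, ATCC64974_41960 (YCF1), with 9.88, 2.24 and 0.665 CPM, and ATCC64974_19990 (CDR4), with 2.52, 21.8 and 1.83 CPM. Each value rests on 1 library, so no test applies to it.

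**Figure D5:**
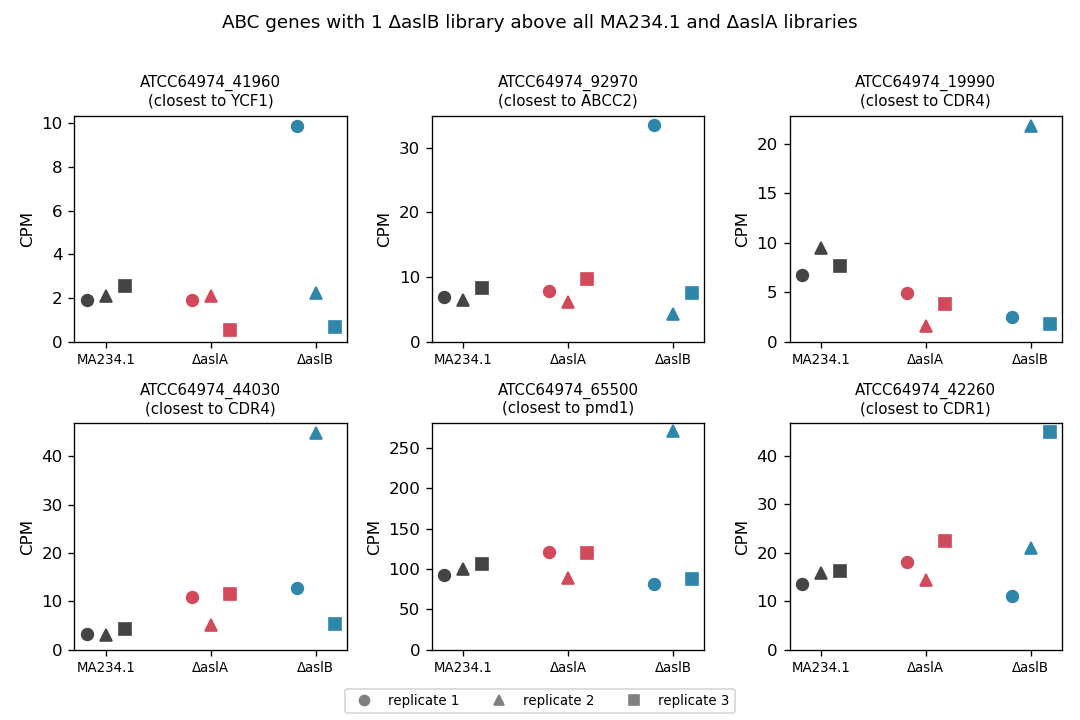
CPM on a linear axis from 0, in all 9 libraries, of the 6 ABC genes that were at least 2-fold above every MA234.1 and ΔaslA library in 1 ΔaslB library, with marker shape for the replicate. The high point of ATCC64974_44030 is 44.8 CPM in replicate 2, and that of ATCC64974_92970 is 33.5 CPM in replicate 1.

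Between ΔaslA and ΔaslB directly, 0 of 59 members were called (edgeR), as were 0.0% of all genes; 14 had an unadjusted p under 0.05, against 17.3% of all genes, and the smallest adjusted p was 0.147. limma-voom called 0, with 12 members at an unadjusted p under 0.05, against 1121 of the 9568 genes tested. DESeq2 called 8, all lower in ΔaslA, against 5.48% of all genes (5.09% lower). The libraries did not overlap for 11 members, 9 of them lower in ΔaslA, against 15.7% of all genes. ATCC64974_37940 (YBT1) had the largest difference (log2 change -3.69 with SE 0.76, edgeR adjusted p = 0.147; without ΔaslB replicate 2, -2.40 with SE 0.40, edgeR adjusted p = 0.0444). ATCC64974_58530 (ABCG15; log2 change -2.62 with SE 0.61, edgeR adjusted p = 0.153) and ATCC64974_101890 (ABCD2; log2 change -2.04 with SE 0.54, edgeR adjusted p = 0.162) were also lower in every ΔaslA library. Without ΔaslB replicate 2 their log2 changes were -2.09 with SE 0.55, edgeR adjusted p = 0.111 for ABCG15 and -1.10 with SE 0.28, edgeR adjusted p = 0.0968 for ABCD2. Without ΔaslB replicate 3, 9 members were called, 8 of them lower in ΔaslA, against 13.2% of all genes (2.14% higher). Without replicate 2, ATCC64974_37940 was the only member called, against 57 of all genes. With all 9 libraries edgeR and limma-voom thus called no difference between the deletions, whereas DESeq2 called 8, and the lack of a call does not show that they act alike. The ΔaslA and ΔaslB comparisons with MA234.1 share its 3 libraries.

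Counted at an absolute log2 ratio of 2 or more, with q below 0.05 and FPKM from 10 upward, the authors' deposited table held 8 of the 67 members for ΔaslA against MA234.1 and 13.4% of all genes. The authors' deposited table had RLI1 ATCC64974_104600 and ARB1 ATCC64974_64310 as higher, against 5.67% of all genes. It had 6 as lower in the authors' deposited table, ATCC64974_101890, ATCC64974_20120, ATCC64974_17820, ATCC64974_37940, ATCC64974_42280 and ATCC64974_68010, against 7.78%. For ΔaslB against MA234.1 the authors' deposited table held 1 member, ARB1, as higher, against 3.79% of all genes (3.13% higher, 0.661% lower). For ΔaslA against ΔaslB the authors' deposited table held 0 members, against 3.39% (0.0179% higher, 3.37% lower).

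Genes that work with the ABC proteins or beside them were counted in the same fit, in which 48.7% of all genes were called, 23.6% higher and 25.0% lower. Cytosolic iron-sulphur assembly depends on atm1 in yeast: of 14 iron-sulphur assembly genes, 10 rose in ΔaslA, none fell and 4 did not pass, with a median log2 fold change of 0.98, while atm1 itself did not pass. JAC1-like ATCC64974_66880, a mitochondrial co-chaperone whose ΔaslA libraries were far apart, stood at 5.196 ± 1.17 CPM in MA234.1 and 30.9 ± 23.9 CPM in ΔaslA (SD, n = 3; log2 change 2.57 with SE 0.58, edgeR adjusted p = 0.00972), and YAH1-like ATCC64974_8060, a mitochondrial ferredoxin, at 11.97 ± 0.613 CPM in MA234.1 and 49.6 ± 0.744 CPM in ΔaslA (SD, n = 3; log2 change 2.05 with SE 0.51, edgeR adjusted p = 0.0123). These had the largest rises of the list. The more abundant ISA1-like ATCC64974_81130 and ISU2-like ATCC64974_77240, at 259 and 153 CPM in MA234.1, were not called (log2 changes 0.02 and -0.41). Of 21 ergosterol synthesis genes, the pathway that azoles block, 19 were tested, 6 rose and 2 fell, a share of calls near the background, with a median of 0.46. ERG13-like ATCC64974_57630, HMG-CoA synthase, stood at 8.15 ± 1.88 CPM in MA234.1 and 306 ± 52.6 CPM in ΔaslA (SD, n = 3; log2 change 5.23 with SE 0.92, edgeR adjusted p = 0.00808), and 1 of the CYP51-like genes, ATCC64974_23620, the azole target, at 70.1 ± 6.48 CPM in MA234.1 and 168 ± 29.3 CPM in ΔaslA (SD, n = 3; log2 change 1.26 with SE 0.30, edgeR adjusted p = 0.0109). The 2 that fell were ERG7-like ATCC64974_47560 (log2 change -2.60 with SE 0.47, edgeR adjusted p = 0.00808) and erg5-like ATCC64974_89480 (log2 change -1.26 with SE 0.37, edgeR adjusted p = 0.0213). Other genes of these symbols did not fall. ERG7-like ATCC64974_7880, at 54.8 CPM in MA234.1 against 11.1 CPM for ATCC64974_47560, was not called (log2 change -0.08). ERG5-like ATCC64974_20880 rose (log2 change 1.49 with SE 0.25, edgeR adjusted p = 0.00808). The abundant ERG3-like ATCC64974_70750 was not called, with a log2 change of -0.07. Among other exporters and carriers, 28 of 343 tested major facilitator genes rose and 162 fell, with a median of -1.30, 1 of the 2 multidrug and toxin extrusion genes tested rose and the other fell, and of 18 P-type ATPase genes 1 rose and 5 fell, with a median of -0.44. The members' 11 rises and 16 falls, with a median of -0.12, stand beside these counts without a test of the difference.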

How the data were processed

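RNA was sequenced as 50 bp pairs from stranded poly(A) libraries, per the labels' protocols. The deposited count table holds raw read counts for each of 11187 genes; HISAT2 2.2.1, Subread, featureCounts and Cuffdiff are named in the submitters' processing notes. The sources used here do not give the genome build, the strand setting or the treatment of reads that map more than once. A second table by the authors holds FPKM per strain, log2 ratios and q-values (adjusted p-values).

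From the counts, edgeR 4.0.16 was fitted once over the 9 libraries and all genes (TMM scaling, filterByExpr, quasi-likelihood test, Benjamini-Hochberg over 9568 genes, called at 0.05), with DESeq2 1.42.0 and limma-voom (limma 3.58.1) as alternatives. SE was computed from the log2 fold change and F. The p-values measure the spread between cultures labelled as biological triplicates. Since 1 fit shares its estimate of spread over all 3 strains, SE and p of ΔaslA against MA234.1 also carry the spread of ΔaslB. That spread was the widest: the median SD of log2 CPM of members was 0.736, against 0.160 in MA234.1 and 0.317 in ΔaslA. A count of 0 allows up to 3 counts, or 0.158 to 0.275 CPM after TMM scaling, counting error only, so the lowest genes are imprecise. CPM per kb used the gene span, and ranked members like the authors' FPKM in MA234.1 (Spearman 0.996 across 59 genes). On simulated data with known fold changes the scripts were tested before use. That simulation gave all strains the spread of MA234.1 and ΔaslA, so it does not cover the wide spread of the ΔaslB libraries.

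The members, lists and classes were chosen with earlier results of these data known. Values by library are printed for called members with the 10 largest rises and 12 largest falls, the 8 highest levels per length, well-studied symbols and the widest ΔaslB ranges; others are summarised or given more briefly. Alternatives covered scaling, filters, tools, a replicate block, each library left out and only the libraries compared.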

Additional observations from a re-analysis of the deposited data

How the results depend on the processing

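For ΔaslA against MA234.1, the 27 calls became 19 to 35 when 1 of the 9 libraries was left out, 37 with only the 6 libraries compared and 33 to 45 when 1 of those 6 was also left out, the highest without ΔaslA replicate 2 (21 higher, 24 lower). Calls over all genes moved too. They went from 4657 to 5900 without ΔaslB replicate 2, to 5133 without ΔaslB replicate 3 and to 69.3% of genes with only the 6 libraries compared. For ΔaslB against MA234.1, where 0 were called, total counts alone as scaling gave 5, DESeq2 11, and leaving out 1 library 0 to 30: 30 without ΔaslB replicate 2 and 1 without replicate 3, and 27 without replicate 2 among only the libraries compared. Over all genes, total counts alone called 8.18%, DESeq2 18.2% and the fit without replicate 2 52.8%, and the fit without replicate 3 called 24 genes. For ΔaslA against ΔaslB, where 0 were called, DESeq2 gave 8 and leaving out 1 library 0 to 9: 1 without ΔaslB replicate 2, 9 without replicate 3, and 2 without replicate 3 among only the libraries compared. Over all genes, DESeq2 called 5.48%, the fit without replicate 2 57 genes and the fit without replicate 3 13.2%. Shares of all genes in the other fits are not given here. The cause was not tested. Other scalings and filters changed no count by over 1.5 times, and an absolute log2 fold change of at least 1 left 23, 0 and 0 calls. Counts without a share of all genes beside them are not read as results about the members.

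The replicate numbers did not pair the libraries: deviations of same-numbered libraries correlated at -0.058 to 0.038 over 9 pairs, and the same number correlated best in 3 of 18 cases. With the replicate number as a block, 26 members were called between ΔaslA and MA234.1 and 0 in both other comparisons. The share of all genes called in that fit is not given here, so the count is not read as a result about the members.

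Between ΔaslA and MA234.1 the sign changed in some alternative for 9 of 59 members, 13 between ΔaslB and MA234.1 and 30 between ΔaslA and ΔaslB, none of them called with all libraries. With a call the sign changed for 1 of them: the CDR4-like ATCC64974_19990 between ΔaslB and MA234.1, at -1.86 without ΔaslB replicate 2 and -1.81 without it among the libraries compared. Of the 32 genes followed through every alternative in ΔaslA against MA234.1, 2 near 0 changed sign. ATCC64974_49750 (ARB_01379) was at 0.0298 with no filter, 0.0126 without ΔaslA replicate 2 and 0.0187 without it among the libraries compared, and ran from -0.0587 to 0.0187 over the libraries left out. ATCC64974_98280 (atm1) was at -0.033 with the stricter filter, -0.0114 and -0.0145 without MA234.1 replicate 1, and -0.0004 and 0.0 without ΔaslA replicate 1, and ran from -0.0145 to 0.0727 over the libraries left out. The authors' FPKM are a different measure from CPM per kb, so only the order of genes can be compared. In MA234.1 they were 181.6 for Abcd2 ATCC64974_20120, 125 for ATCC64974_49750, 111 for ATCC64974_17820, 123 for ATCC64974_2260, 94.4 for ATCC64974_101890, 69.6 for ATCC64974_98280, 48.7 for ATCC64974_81840 and 43.1 for ATCC64974_30740. By FPKM ATCC64974_2260 stood above ATCC64974_17820, the reverse of their order by CPM per kb.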

Other observations

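The 8 members that lie directly beside another member form the pairs ATCC64974_7200 and ATCC64974_7210, ATCC64974_84200 and ATCC64974_84210, ATCC64974_93000 and ATCC64974_93010, and ATCC64974_110710 and ATCC64974_110720. Of these 8 genes, 5 had PF00005 and no further class domain, and each pair held at least 1 such gene. Whether a pair is 1 gene annotated in pieces was not tested. None averaged more than 10 CPM in MA234.1. ATCC64974_7210 (Abcc3) stood at 4.04, 3.36 and 4.45 CPM in MA234.1 and ATCC64974_84200 (bfr1) at 2.202, 1.27 and 2.76 CPM, whereas ATCC64974_93000 (ABCC2) had at most 0.0768 CPM there.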
